A study of Mus musculus with 12 samples.

Results

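Acute phase proteins and their regulators were taken as 32 genes by symbol from the 25239 gene symbols of the count table. They comprised 13 positive proteins of class 1 (Orm1, Orm2, Orm3, Saa1, Saa2, Saa3, Saa4, Crp, Apcs, Hp, Hpx, Lcn2 and Lbp), 11 of class 2 (Fga, Fgb, Fgg, Fgl1, Lrg1, Serpina3n, Serpina3m, Serpina3k, Itih3, Itih4 and Cp), the 2 negative proteins Alb and Ahsg, and 6 regulators or receptors (Steap4, Cebpb, Cebpd, Stat3, Osmr and Lifr). All 32 were found, all 32 had enough counts for the test in liver, and 12 had enough in brain. The libraries came from male, wild-type C57BL/6J mice of 24 months. Heat stress mice spent 3 h a day for 15 days at 40 ± 0.5 °C and a relative humidity of 60% ± 5%, and control mice did not receive this exposure. Each group, liver control, liver heat stress, brain control and brain heat stress, had 3 libraries and the study used 3 mice per group. RNA came from small pieces cut from frozen tissue, with all their cells together, so fewer cells of a type and less RNA per cell cannot be told apart. The brain region of the pieces is not stated.

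The acute phase response is the change in the secretion of the liver that follows inflammation, injury or other stress. Interleukin-6 and related cytokines act through the shared receptor subunit gp130 on the kinase Jak1 and the transcription factor Stat3, which drives class 2 genes such as the fibrinogens. Class 1 genes such as the serum amyloids also respond to interleukin-1 through NF-kB and the C/EBP factors, glucocorticoids add to both, and the negative proteins such as albumin fall.

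Total counts ran from 10466198 to 15609040 per library. Hepatocyte markers summed to 32982 to 41889.8 CPM (counts scaled to library size) in liver and to 9.47 to 20.3 CPM in brain, and neuronal markers to 7997 to 11828 CPM in brain and 13.6 to 38.1 CPM in liver, so each tissue carried its defining transcripts. Skeletal muscle markers summed to 378 CPM in liver control replicate 1 and 2154 CPM in liver heat stress replicate 2, against 1.21 to 6.94 CPM in the other 4 liver libraries. Counts of liver members, and the values these libraries move most, are therefore also given without them. CPM values below were scaled by TMM factors within each tissue, and p-values measure the spread between the libraries of a group.

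In the liver, no acute phase gene passed an adjusted p of 0.05 in the quasi-likelihood test of edgeR, with p adjusted by Benjamini-Hochberg over 12296 genes, of which 0% passed and 718 were under an unadjusted p of 0.05. At an unadjusted p under 0.05, 6 of the 32 were higher under heat stress (Orm2, Orm3, Saa1, Saa2, Cebpb and Cebpd), which is 18.8% of them against 2.97% of all genes tested. Only Crp was lower at this limit, against 2.87% of all genes. The groups did not overlap for 6 members. Orm2, Orm3, Cebpb and Cebpd were higher in every heat stress library than in any control, 12.5% of the members against 5.38% of all genes, and Crp and Lifr were lower in every one, 6.25% against 5.73% of all genes. Fitted log2 fold changes were above 0 for 25 members and below 0 for 7, with a median of 0.18 beside 0.011 over all genes tested. Without heat stress replicate 3 they were above 0 for 17 of the 32. With DESeq2's Wald test on the same counts, 3 members passed an adjusted p of 0.05 (Cebpb, 0.0193; Orm2, 0.0260; Orm3, 0.0389), among 66 genes in all.

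The promoters of the class 1 genes with the largest differences are shown because these members were higher in pairs, with Crp for contrast. They are RefSeq sequences of build GRCm38.p6, 250 bases before to 50 bases after the start of each gene, on the gene's strand, with matches to the C/EBP letters TTNNGNAA on either strand in capitals.
Orm2, chr4:63362199-63362498, plus strand: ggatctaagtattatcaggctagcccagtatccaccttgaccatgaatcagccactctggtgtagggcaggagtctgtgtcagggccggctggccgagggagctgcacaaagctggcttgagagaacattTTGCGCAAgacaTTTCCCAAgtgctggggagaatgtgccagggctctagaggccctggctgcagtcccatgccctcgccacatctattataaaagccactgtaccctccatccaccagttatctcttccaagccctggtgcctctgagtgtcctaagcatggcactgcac
Orm3, chr4:63355908-63356207, plus strand: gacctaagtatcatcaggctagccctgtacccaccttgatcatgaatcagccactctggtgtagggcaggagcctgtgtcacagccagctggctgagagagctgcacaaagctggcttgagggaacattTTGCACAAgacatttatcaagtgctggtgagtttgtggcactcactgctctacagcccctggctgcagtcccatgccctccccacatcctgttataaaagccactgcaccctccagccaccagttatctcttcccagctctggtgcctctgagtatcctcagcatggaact
Saa1, chr7:46742931-46743230, minus strand: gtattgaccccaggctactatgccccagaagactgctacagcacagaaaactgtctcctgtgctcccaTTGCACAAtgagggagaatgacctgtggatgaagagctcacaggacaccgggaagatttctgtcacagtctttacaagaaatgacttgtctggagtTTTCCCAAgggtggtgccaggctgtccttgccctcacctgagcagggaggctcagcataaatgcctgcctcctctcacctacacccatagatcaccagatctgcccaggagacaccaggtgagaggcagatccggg
Saa2, chr7:46751583-46751882, plus strand: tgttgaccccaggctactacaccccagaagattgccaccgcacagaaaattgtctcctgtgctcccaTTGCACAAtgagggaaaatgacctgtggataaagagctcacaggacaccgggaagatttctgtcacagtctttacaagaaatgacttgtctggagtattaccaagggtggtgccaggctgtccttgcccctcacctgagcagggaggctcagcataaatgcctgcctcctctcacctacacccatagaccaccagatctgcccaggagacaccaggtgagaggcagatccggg
Crp, chr1:172697806-172698105, plus strand: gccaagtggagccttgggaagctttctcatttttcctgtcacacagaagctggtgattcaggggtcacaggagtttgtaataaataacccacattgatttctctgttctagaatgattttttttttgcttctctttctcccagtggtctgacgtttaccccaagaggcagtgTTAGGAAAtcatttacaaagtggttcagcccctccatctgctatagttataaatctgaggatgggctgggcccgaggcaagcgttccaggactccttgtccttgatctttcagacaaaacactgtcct

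The Orm2 and Orm3 promoters were identical at 86.6% of aligned positions, and each held a match that began 120 or 121 bases before the start. The Orm2 promoter had another match 108 bases before the start that overlapped no other. The Saa1 and Saa2 promoters were identical at 95.3% of aligned positions and shared a match 182 and 183 bases before the start, while the match 86 bases before the start stood in Saa1 alone. Crp, which was lower under heat stress, also held a match, 78 bases before its start. Promoters were found for 25 members, 27 windows in all, and 18 of the 27 held the C/EBP letters against 40.7% of 32851 promoters of the same length. Matches to the STAT letters TTCNNNGAA stood in 5 of 27 against 8.3%, and to the NF-kB letters GGGNNTTTC in 2 of 27 against 4.36%. None of the promoters printed above held a match to these STAT or NF-kB letters. Wider forms of these sites were not searched, so such sites are not excluded.

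The orosomucoids, or alpha-1-acid glycoproteins, are abundant plasma proteins that bind drugs and temper inflammation. Their 3 genes lie side by side on chromosome 4, between 63344560 and 63365878 in GRCm38. Orm2 had 13.3, 9.70 and 9.78 CPM in control replicates 1 to 3 and 22.5, 17.1 and 36.0 CPM in the heat stress replicates. Every heat stress library was above every control, with a log2 fold change of 1.20 ± 0.28 (SE; edgeR, adjusted p = 0.416). Orm3 had 7.55, 7.26 and 4.47 CPM in controls and 16.8, 12.1 and 12.5 CPM under heat stress. Its groups were as clearly apart, with a log2 fold change of 1.09 ± 0.25 (edgeR, adjusted p = 0.408). Orm1, by far the most abundant, had 779, 983 and 1101 CPM in controls and 1395, 847 and 1425 CPM under heat stress. Heat stress replicates 1 and 3 were above all controls for Orm1 and replicate 2 fell within them. Per kilobase of exon over all liver libraries, Orm1 stood at 1404 CPM, Orm2 at 23.3 CPM and Orm3 at 13.1 CPM. The Orm1 and Orm2 transcripts share 20.4% of their stretches of 50 bases, so the Orm2 value is uncertain where counting could not separate the 2.

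Serum amyloid A proteins, the apolipoproteins that climb most steeply in inflammation, differed less evenly. Saa1 had 24.3, 43.0 and 45.3 CPM in controls and 129, 43.2 and 69.9 CPM under heat stress. Saa2 had 10.5, 15.0 and 16.1 CPM in controls and 56.5, 14.7 and 22.2 CPM under heat stress. For both genes heat stress replicate 1 was far above the rest, replicate 3 above all controls, and replicate 2 among the controls. The log2 fold change was 1.11 ± 0.38 for Saa1 (edgeR, adjusted p = 0.739) and 1.17 ± 0.44 for Saa2 (edgeR, adjusted p = 0.799). Without heat stress replicate 1 these were 0.57 and 0.40, with unadjusted edgeR p-values of 0.0907 and 0.168. The count columns of heat stress replicates 1 and 3 and control replicate 2 carry the unexplained suffix 2nd, and with it as a term the log2 fold changes were 0.77 and 0.78, with unadjusted edgeR p-values of 0.0590 and 0.107. Saa1 and Saa2 transcripts share 31.1% and 30% of their stretches of 50 bases, and their counts are not fully separate measurements. Saa3, which is also made outside hepatocytes, had 4.26, 11.2 and 10.3 CPM in controls and 17.6, 6.27 and 16.3 CPM under heat stress, with the same 2 heat stress libraries, both with the suffix, high. Saa4, which is expressed constitutively, ranged over 272 to 364 CPM in controls and 241 to 321 CPM under heat stress.

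**Figure D1:**
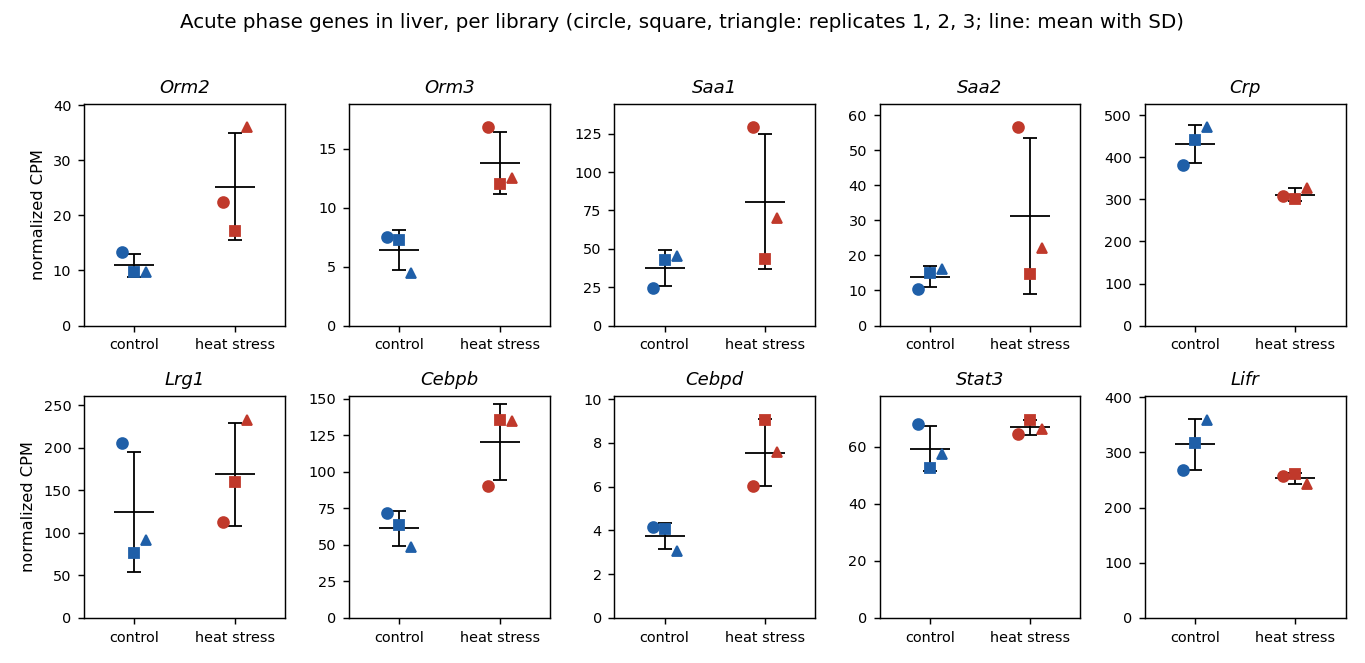
Normalized CPM of 10 acute phase genes in the 3 control (blue) and 3 heat stress (red) liver libraries, with the mean and SD as lines and the replicates as symbols. Orm2, Orm3, Cebpb and Cebpd have no overlap between the groups, Crp and Lifr are lower in every heat stress library, and heat stress replicate 1 alone carries much of the Saa1 and Saa2 difference.

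The pentraxins were lower or overlapped. Crp, the C-reactive protein, which is a minor acute phase protein in mice, had 382, 442 and 472 CPM in controls and 307, 299.9 and 328 CPM under heat stress. All 3 heat stress libraries were below all controls, and the log2 fold change was -0.47 ± 0.18 (edgeR, adjusted p = 0.799). Apcs, serum amyloid P component and the pentraxin that responds more strongly in mice, ranged over 71.1 to 174 CPM in controls and 86.9 to 137 CPM under heat stress, with full overlap.

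Haptoglobin (Hp), the scavenger of free haemoglobin, had 2559, 1589 and 1964 CPM in controls and 2083, 2209 and 3674 CPM under heat stress. Heat stress replicate 3 was the highest library and the groups overlapped, with a log2 fold change of 0.38 ± 0.28 (edgeR, adjusted p = 0.938) that was 0.060 without heat stress replicate 3, 0.57 without control replicate 1 and 0.68 without both libraries with muscle transcripts. Hemopexin (Hpx), which binds free haem, ranged over 2903 to 4865 CPM in controls and 3923 to 5683 CPM under heat stress. Lipocalin 2 (Lcn2), which withholds iron from bacteria by binding their siderophores, had 3.81, 1.14 and 2.05 CPM in controls and 5.29, 2.93 and 4.18 CPM under heat stress. Control replicate 1 lay among the heat stress values for Lcn2, and the other 2 controls below them. Lbp, which passes bacterial lipopolysaccharide to its receptor, ranged over 39.4 to 59.5 CPM in controls and 36.5 to 70.0 CPM under heat stress.

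None of the 11 class 2 genes reached an unadjusted p of 0.05, as 5.84% of all genes did, and none had groups apart, as 5.38% of all genes had upward and 5.73% downward, so at 11 genes these counts are near the share over all genes. Without control replicate 1 the class 2 genes Fga, Fgb, Lrg1 and Serpina3n were higher in every heat stress library, beside 15.7% of all genes. The median log2 fold change was 0.086 for class 2 and 0.38 for the 13 class 1 genes, beside 0.011 over all genes. With all libraries the class 1 median is the value of Hp. Hp itself was at 0.060 without heat stress replicate 3, and the class 1 median of that fit is not given here. Of the fibrinogen chains, which form the clot, Fgb had 3183, 2068 and 2479 CPM in controls and 2676, 2759 and 3378 CPM under heat stress. Control replicate 1 was among the highest libraries for Fgb, and its log2 fold change was 0.19 ± 0.23 (edgeR, adjusted p = 0.959), which ran from 0.053 without control replicate 2 to 0.36 without control replicate 1. Fga ranged over 1477 to 3260.3 CPM in controls and 2048 to 3006 CPM under heat stress, and Fgg over 2385 to 2831 CPM and 2576 to 3160.4 CPM. The fibrinogen-like hepatokine Fgl1 ranged over 155 to 277 CPM and 154 to 291 CPM. Thus the 3 chains of fibrinogen, encoded together on chromosome 3, overlapped between groups with all libraries in.

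Lrg1, a leucine-rich glycoprotein induced through Stat3, had 205, 76.3 and 91.2 CPM in controls and 113, 159.6 and 233 CPM under heat stress. Its log2 fold change was 0.44 ± 0.38 (edgeR, adjusted p = 0.947), and it was 1.00 without control replicate 1 and 0.12 without heat stress replicate 3. Serpina3n, a protease inhibitor of the antichymotrypsin family, had a like pattern, with 177, 77.0 and 82.8 CPM in controls and 121, 163 and 164 CPM under heat stress. Control replicate 1 exceeded every heat stress library for Serpina3n, while the other 2 controls were below them all. The related Serpina3k was the most abundant class 2 gene, at 8709.7 to 12066 CPM in controls and 8532 to 10851 CPM under heat stress, and Serpina3m ranged over 187 to 264 CPM and 221 to 279 CPM. The annotated spans of Serpina3k and Serpina3m overlap on chromosome 12 and their transcripts share sequence, so these 2 are uncertain. The hyaluronan-binding inter-alpha-trypsin inhibitor heavy chains gave 403 to 533 CPM in controls and 403 to 675 CPM under heat stress for Itih3, and 1007 to 1182 CPM and 917 to 1503 CPM for Itih4. Ceruloplasmin (Cp), the copper-carrying ferroxidase, ranged over 486 to 801 CPM and 534 to 758 CPM. All of these overlapped between groups.

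Neither negative protein passed the test. Albumin (Alb), the main plasma protein, had 86772, 50406 and 64514 CPM in controls and 62148, 77674 and 83170.4 CPM under heat stress. The highest and the lowest library were both controls, and the log2 fold change was 0.14 ± 0.26 (edgeR, adjusted p = 0.97), which was -0.026 without control replicate 2 and 0.36 without control replicate 1. Fetuin A (Ahsg), an inhibitor of calcification, ranged over 3170.4 to 5735 CPM in controls and 3975 to 6097 CPM under heat stress. Albumin took 5.11% to 8.61% of the counts of a liver library, and the 32 members together 12.2%, 7.92% and 10.3% in controls and 9.28%, 11.6% and 11.7% under heat stress.

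Among the regulators, both C/EBP factors were higher. Cebpb, which drives acute phase and gluconeogenic genes in hepatocytes, had 71.6, 63.6 and 48.6 CPM in controls and 90.5, 136 and 135 CPM under heat stress. The groups were apart, with a log2 fold change of 0.97 ± 0.22 (edgeR, adjusted p = 0.408). Cebpd, its partner that is induced early in inflammation, had 4.13, 4.08 and 3.08 CPM in controls and 6.03, 9.06 and 7.57 CPM under heat stress. It too was higher in every heat stress library, with a log2 fold change of 1.00 ± 0.25 (edgeR, adjusted p = 0.431). For both factors heat stress replicate 1, the library highest in Saa1 and Saa2, was the lowest of the 3.

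Stat3 itself had 67.8, 52.6 and 57.6 CPM in controls and 64.5, 69.5 and 66.2 CPM under heat stress. Control replicate 1 lay within the heat stress values, and the log2 fold change was 0.17 ± 0.17 (edgeR, adjusted p = 0.947), or 0.26 without that control and 0.088 without control replicate 2. Lifr, the receptor subunit for leukemia inhibitory factor that pairs with gp130, had 268, 317 and 359.6 CPM in controls and 257, 261 and 242 CPM under heat stress. It was below every control in each heat stress library, with a log2 fold change of -0.31 ± 0.18 (edgeR, adjusted p = 0.930). This log2 fold change ran from -0.43 to -0.21 when 1 library was left out. Osmr, the oncostatin M receptor subunit, ranged over 1.87 to 4.19 CPM in controls and 2.02 to 4.47 CPM under heat stress. Steap4, a metalloreductase that responds to inflammation and feeding, ranged over 83.5 to 98.6 CPM and 75.1 to 89.3 CPM.

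**Figure D2:**
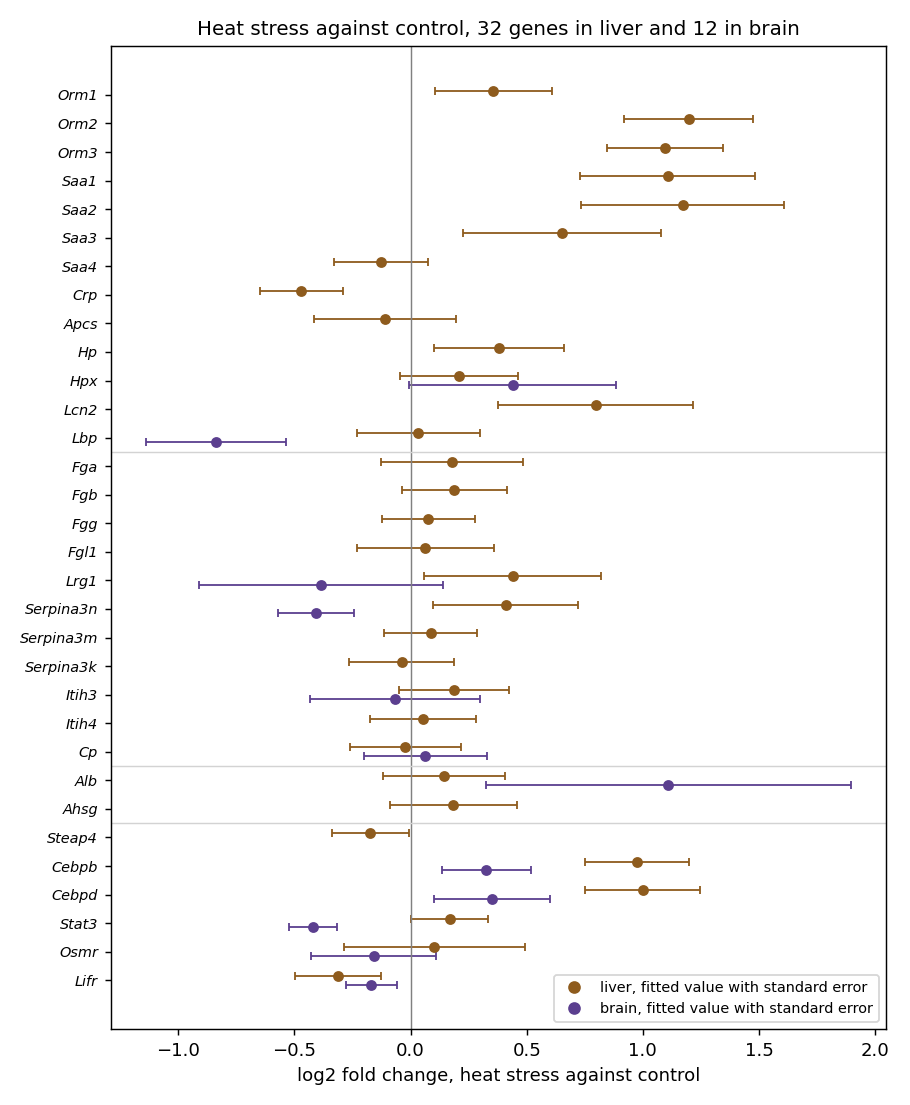
Fitted log2 fold change of heat stress against control with its standard error for the 32 genes in liver (brown) and the 12 tested in brain (purple); grey lines separate class 1, class 2, negative proteins and regulators. In liver Orm2, Orm3, Saa1, Saa2, Cebpb and Cebpd lie between 0.97 and 1.20, and class 2 genes lie between -0.038 and 0.44.

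Per kilobase of exon, the order of levels in liver controls was led by Alb at 28707 CPM, followed by Serpina3k at 4794 CPM, Hpx at 2714 CPM, Ahsg at 1961 CPM, Fgg at 1277 CPM, Hp at 1268 CPM and Orm1 at 1231 CPM. The members with the largest log2 fold changes sat far down this order, with Saa1 at 15.1 CPM, Orm2 at 14.1 CPM, Orm3 at 8.32 CPM and Saa2 at 5.50 CPM. Cebpb stood at 40.7 CPM and Cebpd at 1.00 CPM per kilobase.

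The members did not peak in the same library. Heat stress replicate 3 held the highest value of 13 of the 32 members and of 12 of the 24 positive proteins, while 15.6% of all genes tested peaked there. It was also the liver library with the most hepatocyte markers, 41889.8 CPM against 32982 to 37374 CPM in the other 5, and the part of this in the members' values was not tested. Control replicate 2 held the lowest value of 13 members, against 18.8% of all genes. Heat stress replicate 2 was the highest for 3 of the 32 members and none of the 24 positive proteins, against 15.2% of all genes, and it was the library with the most skeletal muscle transcripts. Without control replicate 1, the other library with such transcripts, 11 members rather than 4 were higher in every heat stress library, beside 15.7% of all genes in that fit. The original 4 were all among them, and the others were Hp, Fga, Fgb, Lrg1, Lcn2, Serpina3n and Stat3. With both of these libraries left out, 16 members were higher in every heat stress library, beside 20.7% of all genes, and 12 were higher at an unadjusted p under 0.05, beside 5.84%. Of the members, Orm2, Orm3 and Cebpb then passed an adjusted p of 0.05 in edgeR (0.00202, 0.0267 and 0.0267), among 81 genes in all. These 3 are the ones that DESeq2 called with all libraries, but both fits use the same counts and are not independent. The reduced fit also lacks 1 library of each group. The part of muscle transcripts in the members' values was not tested.

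**Figure D3:**
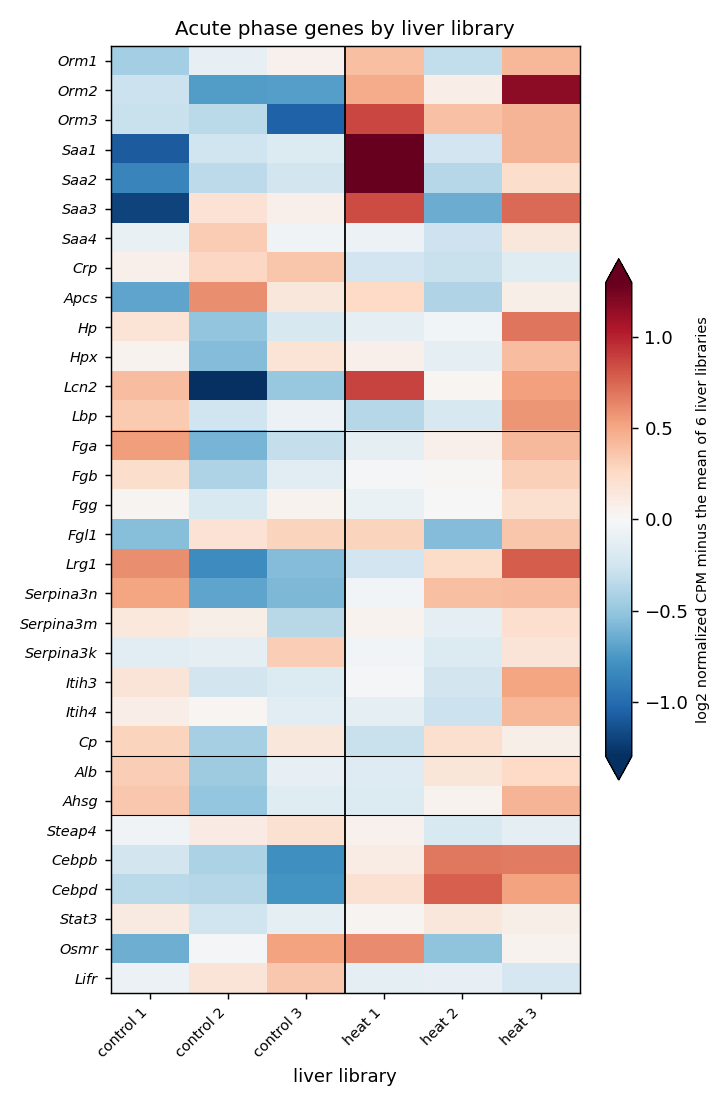
Log2 normalized CPM of the 32 genes in each liver library, centred on the mean of the 6 libraries, with red above and blue below that mean; black lines separate the groups of genes and the control from the heat stress libraries. Saa1, Saa2 and Saa3 are highest in heat stress replicate 1, most class 2 genes are highest in heat stress replicate 3 or control replicate 1, and control replicate 2 is lowest for 13 genes.

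Other genes of the pathway were read from lists of signalling genes, liver transcription factors, further positive and further negative acute phase proteins. Of 25 signalling genes tested in liver, 3 (12%) were higher and 0 lower at an unadjusted p under 0.05, against 2.97% and 2.87% of all genes, with a median log2 fold change of 0.19 beside 0.011 over all genes. Socs3, the feedback inhibitor that Stat3 induces, had 4.39, 5.06 and 3.63 CPM in controls and 7.52, 15.3 and 12.1 CPM under heat stress. Every heat stress library was higher, with a log2 fold change of 1.41 ± 0.29 (edgeR, adjusted p = 0.280). The other 2 were Cish, a feedback inhibitor in the same family that is induced through Stat5 (1.23 ± 0.26, adjusted p = 0.327), and Fkbp5, a glucocorticoid receptor target (0.56 ± 0.17, adjusted p = 0.604), both also higher in every heat stress library. The receptor chains Il6ra and Il6st had log2 fold changes of 0.19 and 0.11, and Il6 was at 0 to 4 counts per library. None of the 10 liver factors passed in either direction.

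Of 28 further positive proteins tested in liver, 3 (10.7%) were higher and 0 lower, against the same shares of all genes. They were the metallothioneins Mt1 and Mt2, zinc-binding proteins that respond to metals, glucocorticoids and cytokines, and the iron hormone hepcidin (Hamp). Mt1 had 7.36, 4.81 and 4.94 CPM in controls and 27.5, 21.9 and 38.7 CPM under heat stress. With a log2 fold change of 2.35 ± 0.27 it had the smallest adjusted p of these lists (edgeR, 0.0599). DESeq2 called Mt1, Mt2, Socs3 and Cish at adjusted p-values of 2e-11, 0.000159, 0.00603 and 0.00894. Without both libraries with muscle transcripts, edgeR called Mt1, Mt2 and Apom (adjusted p = 2.63e-06, 0.0006 and 0.0195), and it also called Mt1 without control replicate 1 alone (0.00225) or heat stress replicate 2 alone (0.0403). Mt2 had 2.00 ± 0.35 (adjusted p = 0.132) and Hamp 0.50 ± 0.20 (adjusted p = 0.834). Of 12 further negative proteins, 11 had log2 fold changes above 0, with a median of 0.31. Apom, an apolipoprotein of high-density lipoprotein, was the one past the unadjusted limit (8.33% of the list against 2.97% of all genes), and it was higher, at 137.9, 79.4 and 90.1 CPM in controls and 140.05, 144 and 207 CPM under heat stress (log2 fold change 0.68 ± 0.25, adjusted p = 0.799).

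The 9 T and natural killer cell markers in the table summed to 2.00 to 5.87 CPM in controls and 7.67 to 16.1 CPM under heat stress, and 3 of the 5 tested were higher at an unadjusted p under 0.05, as 2.97% of all genes were. The 10 macrophage markers summed to 177 to 285 CPM and 231 to 404 CPM, with heat stress replicate 1, highest in Saa1, Saa2 and Saa3, at the top, all 10 had log2 fold changes above 0 and 1 was under an unadjusted p of 0.05. Neutrophil markers summed to 1.23 to 7.99 CPM and 3.28 to 6.85 CPM, with 0 of 2 tested under that p and 1 of 10 at 0 in every library. The 10 hepatocyte markers, of which 6 were above 0, had a median log2 fold change of 0.019. The 5 endothelial markers summed to 120 to 128 CPM in controls and 140 to 167 CPM under heat stress, with 0 under an unadjusted p of 0.05. Most of this sum was Slco1a4, at 76.7 to 83.9 CPM and 94.0 to 112 CPM. Pecam1 was also higher in every heat stress library, while Cldn5, Flt1 and Cdh5 overlapped. The 7 adipocyte markers, mostly Car3, summed to 4361 to 5718 CPM in controls and 3152 to 4247 CPM under heat stress, with 0 of 3 tested under that p. Adipoq had 1, 0 and 1 counts in controls and 2, 48 and 3 under heat stress, so the adipocyte sum reads Car3 rather than the list. The part of these cell types in the members' values was not tested.

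In the brain, 12 members were tested and none passed an adjusted p of 0.05, as 0% of 14806 genes did in edgeR, where 2969 genes were under an unadjusted p of 0.05; DESeq2 called 616 genes and 1 member, Stat3. At an unadjusted p under 0.05, 0 members were higher, against 10% of all genes, and 3 were lower (Stat3, Lbp and Serpina3n), which is 25% of the members tested against 10% of all genes. Groups did not overlap for 1 member that was higher, Cebpb, against 12.9% of all genes, and for 1 that was lower, Stat3, against 12%. Leaving out 1 brain library at a time left 1 to 3 members lower at this limit, Stat3 each time. The median log2 fold change was -0.11 beside -0.0030 over all genes.

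Stat3 had 48.5, 48.6 and 48.2 CPM in brain controls and 38.7, 34.3 and 35.6 CPM under heat stress. The controls were nearly alike and every heat stress library was below them, with a log2 fold change of -0.42 ± 0.10 (edgeR, adjusted p = 0.170; DESeq2, adjusted p = 0.0375). Lbp had 8.71, 6.98 and 11.2 CPM in controls and 4.43, 7.26 and 3.31 CPM under heat stress. Heat stress replicate 2 was within the controls and the other 2 were below, with a log2 fold change of -0.84 ± 0.30 (edgeR, adjusted p = 0.192). Serpina3n, which in brain is a gene of reactive astrocytes, had 24.3, 18.5 and 22.1 CPM in controls and 19.5, 14.8 and 14.7 CPM under heat stress. Only heat stress replicate 1 overlapped the controls, and the log2 fold change was -0.41 ± 0.16 (edgeR, adjusted p = 0.218).

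Cebpb had 4.59, 5.76 and 5.02 CPM in brain controls and 6.19, 6.63 and 6.42 CPM under heat stress. It was higher in every heat stress library, with a log2 fold change of 0.33 ± 0.19 (edgeR, adjusted p = 0.357). Cebpd had 2.88, 4.89 and 3.56 CPM in controls and 4.43, 5.11 and 4.82 CPM under heat stress, and its groups overlapped through control replicate 2. Lrg1 was at a low level, with 0.486 to 1.65 CPM in controls and 0.448 to 1.13 CPM under heat stress (log2 fold change -0.39 ± 0.53, edgeR, adjusted p = 0.703). When 1 library was left out, the log2 fold change of Lrg1 ran from -0.72 to 0.16, so its direction is not settled. Itih3, the most abundant member in brain per kilobase, had 41.2, 79.7 and 77.9 CPM in controls and 97.6, 54.9 and 36.7 CPM under heat stress, a spread within groups that exceeded any difference between them. Lifr ranged over 56.6 to 61.9 CPM and 48.3 to 57.2 CPM, Osmr over 4.13 to 5.83 CPM and 3.51 to 6.09 CPM, and Cp over 18.2 to 23.2 CPM and 15.2 to 31.98 CPM.

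**Figure D4:**
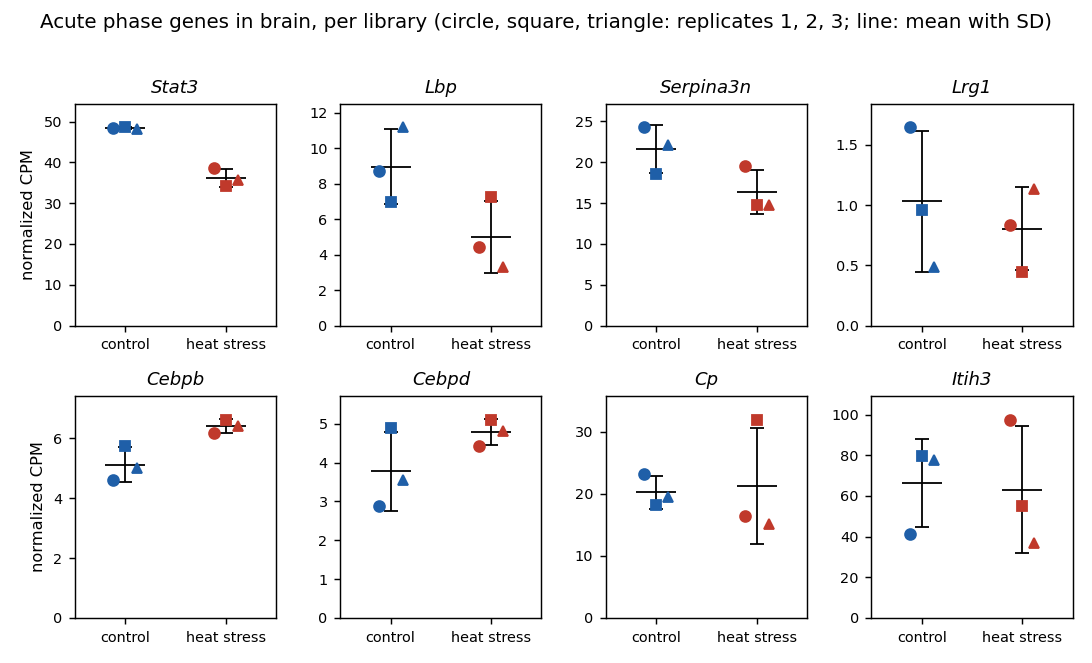
Normalized CPM of 8 acute phase genes in the 3 control (blue) and 3 heat stress (red) brain libraries, with the mean and SD as lines and the replicates as symbols. Stat3 is lower and Cebpb higher in every heat stress library, and the other 6 genes overlap between the groups.

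Of the 20 members not tested in brain, 11 never exceeded 3 counts in a brain library, among them Orm1, Orm2, Orm3, Saa1, Saa2, Saa3, Saa4, Crp and Apcs, and the highest count of any was 17. Orm3, Saa4 and Apcs had 0 counts in all 6, which allows a share of up to 2.06e-05% to 2.84e-05% of a library's counts, counting error only. Alb had 3.15, 2.88 and 0.567 CPM in brain controls and 3.88, 9.58 and 0.850 CPM under heat stress (log2 fold change 1.11 ± 0.79, edgeR, adjusted p = 0.448), and without heat stress replicate 2 the log2 fold change was 0.10. Hpx ranged over 0.611 to 0.971 CPM and 0.567 to 1.61 CPM (0.44 ± 0.45, adjusted p = 0.601), and its log2 fold change was 0.12 without heat stress replicate 2 and 0.76 without heat stress replicate 3. Heat stress replicate 2 was the highest library for both, for 6 of the 12 members tested and for 9 of the 17 untested members that had any count, while 21.9% of all genes tested in brain peaked there. The same library had the highest sum of neutrophil markers, 38.0 CPM against 6.79 to 13.6 CPM in the other brain libraries, and of hepatocyte markers, 20.3 CPM, and the part of these transcripts in the values of Alb and Hpx was not tested.

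Of 23 signalling genes tested in brain, 0 were higher and 5 (21.7%) lower at an unadjusted p under 0.05, against 10% of all genes in each direction, with a median log2 fold change of -0.28 beside -0.0030 over all genes. Il6st, which encodes gp130, had 80.01, 79.9 and 76.2 CPM in controls and 59.9, 64.4 and 54.8 CPM under heat stress. Like Stat3 it was below every control in each heat stress library, with a log2 fold change of -0.40 ± 0.11 (edgeR, adjusted p = 0.170; DESeq2, adjusted p = 0.0411). The kinase Jak1 was at -0.33 ± 0.12 and the ligand Lif at -0.97 ± 0.42, both also lower in every heat stress library, while Fos, the early response factor, at -0.60 ± 0.19 and the interleukin-1 receptor Il1r1 at -0.66 ± 0.26 overlapped with the controls. The 1 liver factor tested in brain did not pass. Of 12 further positive proteins, Mt2 (0.73 ± 0.18) and Mt1 (0.43 ± 0.17) were higher, and the clotting factor carrier Vwf (-1.27 ± 0.40) and the zinc transporter Slc39a14 (-0.40 ± 0.13) were lower, which is 16.7% of that list in each direction against 10% of all genes. Without 1 library Vwf was at -0.71 (control replicate 1) and Mt1 at 0.27 (heat stress replicate 2), and DESeq2 called Mt2 at an adjusted p of 0.0142. Of 5 further negative proteins, the retinol carrier Rbp4 was higher (0.56 ± 0.25) and transthyretin Ttr (-1.40 ± 0.50) and transferrin Trf (-0.56 ± 0.23) were lower, with Trf at -0.29 without control replicate 3. These are 20% and 40% of a list of 5, against 10% of all genes.

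The 8 markers of the choroid plexus, the epithelium that secretes cerebrospinal fluid, summed to 101 to 186 CPM in controls and 36.9 to 82.8 CPM under heat stress, and 4 of them were lower at an unadjusted p under 0.05, as 10% of all genes were. No marker passed an adjusted p of 0.05 in edgeR, as no gene in brain did. The 5 endothelial markers summed to 140.2 to 247 CPM and 101 to 132 CPM, with 4 lower. The 5 pericyte markers summed to 216 to 306 CPM and 192 to 253 CPM, which overlap, with 3 lower and 1 above 0. Of 6 astrocyte markers 1 was lower, and they summed to 4179 to 5947 CPM and 3804 to 4868 CPM. The part of these cell types in the values of Stat3, Il6st, Lbp, Serpina3n, Vwf and Ttr was not tested. Nor was the part of the brain region sampled, which is not stated.

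The heat effect in liver was then set against that in brain by the interaction of tissue and treatment over all 12 libraries, taken as independent although the study used 3 mice per group and the labels do not say which brain and liver share a mouse. Of the 32 members in this fit, none of the 12 also tested within brain had an adjusted p under 0.05, against 0.00632% of 15824 genes, in edgeR's quasi-likelihood test. Of the 12, Stat3 alone had an unadjusted p under 0.05 and its effect was higher in liver than in brain by 0.57 ± 0.22 on the log2 scale (adjusted p = 0.516), where 3.73% of all genes had a higher and 5.91% a lower effect in liver at this limit. The other 20 passed the count filter of this fit through liver, so it cannot compare their heat effect between tissues. Among them is Fga, with 0, 1 and 0 counts in brain controls and 3, 5 and 1 under heat stress. With the replicate block the unadjusted p of Stat3 was 0.0558 in edgeR. With brain and liver of the same group and number taken as 1 mouse, a fit added after the data were seen, it was 0.0267, and Serpina3n also fell under 0.05, at 0.0273. Cebpb, which was higher in every heat stress library of both tissues, had an effect 0.63 ± 0.31 higher in liver, which did not pass (edgeR, unadjusted p = 0.0628, adjusted p = 0.524). Lbp at 0.84 ± 0.45, Cebpd at 0.64 ± 0.36 and Serpina3n at 0.77 ± 0.44 were also above 0 without passing either limit. Without liver control replicate 1, 5 of the 12 members had a higher effect in liver at an unadjusted p under 0.05, beside 11.3% of all genes.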

How the data were processed

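Messenger RNA of liver and brain was sequenced from stranded TruSeq libraries, 3 per group. The authors deposited raw read counts for 25239 gene symbols, 1 column per library. The submitters' processing notes name FastQC 0.11.9, Trimmomatic 0.39, HISAT2 2.2.1, featureCounts of Subread 2.0.1, DESeq2 1.22.2 and build mm10, whereas the paper's methods also describe Tophat2 with HTSeq. The annotation release, the strand setting and the treatment of reads shared between genes are not given in the sources used here, which bears on Orm, Saa and Serpina3 genes. Tables of the authors' own comparisons, with log2 fold changes and p-values, were deposited too and were not used.

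Counts were analysed in R 4.3.3 with edgeR 4.0.16 (TMM, filterByExpr at 10 counts and 15 in total, robust quasi-likelihood test, Benjamini-Hochberg adjustment over all genes tested in a tissue), with DESeq2 1.42.0 as an alternative. Both tools were tested on simulated data, where DESeq2 made more false calls than edgeR. Each standard error was derived from the fitted log2 fold change and its F statistic. The interaction was fitted on all 12 libraries. A single value compared between 3 and 3 libraries cannot reach an exact two-sided permutation p under 0.1.

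Members, lists and tests were chosen with earlier results of these data known. Fitted values are printed for members under an unadjusted p of 0.05 or with groups that do not overlap, for the 3 largest log2 fold changes per tissue, and for Orm2, Saa1, Saa2, Hp, Fgb, Lrg1, Alb, Stat3 and Cebpb, and for at most 6 genes of each other list past that p. Other members are given by their levels, and Il6ra, Il6st and Il6 in liver, the standard errors of the interaction and the libraries named with them were chosen after their values were seen. Positions and exon lengths are from GENCODE M21 (GRCm38, the mm10 assembly) and promoters from RefSeq GRCm38.p6, where Cebpd, Lbp, Serpina3m, Hp, Orm1, Fgl1 and Serpina3k had none. Motif positions count to the first base of the match. Promoters were compared by global alignment. Alternatives were other size factors, DESeq2, other count filters, a replicate block, all libraries in 1 fit, the column name suffix as a term, and leaving out libraries.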

Additional observations from a re-analysis of the deposited data

How the results depend on the processing

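Replicates of 3 a group limit these results, and no member passed an adjusted p in edgeR with all libraries. DESeq2's Wald test gave 3 members in liver and 1 in brain at an adjusted p under 0.05, and edgeR without both liver libraries that held skeletal muscle transcripts gave 3. Without those libraries 12 members were higher and 2 lower at an unadjusted p under 0.05 (6 and 1 with all; 5.84% and 4.57% of all genes), 16 were higher in every heat stress library (4 with all; 20.7% of all genes) and 15 other pathway genes were higher (7 with all). Within a tissue the replicate numbers did not pair control with heat stress libraries (correlations of same-numbered deviations from -0.63 to 0.23). Between liver and brain of a group, same-numbered correlations across genes were 0.13 to 0.39 in controls and -0.23 to 0.057 under heat stress. With the replicate block, 0 members were lower in liver, 1 was higher in brain and 0 had a higher effect in liver than in brain at an unadjusted p under 0.05 (1.05%, 9.84% and 2.16% of all genes). A fit of all 12 libraries gave 2 members lower in liver and 1 higher in brain, and 3 brain members higher in every heat stress library, of 32 in each tissue (5.45%, 5.04% and 12.3% of all genes). In brain, 20 of the 32 passed its filter through liver, so these brain counts decide nothing for them. With no count filter, members with too few brain counts for the test were kept as well. There 1 of 29 brain members was higher at that p, 3 were higher in every library, and 4 members had a higher effect in liver (7.38%, 10.3% and 4.52% of all genes). That last count was 2 with DESeq2's size factors, with upper-quartile factors, with DESeq2 and, added after the data were seen, with brain and liver of a number taken as 1 mouse (4.91%, 4.34%, 5.09% and 4.11% of all genes). A term for the column name suffix gave 1 other pathway gene lower in liver. Leaving out 1 library at a time gave, in liver, 0 to 2 members lower at an unadjusted p under 0.05 (1.45% to 5.78% of all genes). Members higher in every heat stress library then numbered 4 to 11 (7.85% to 15.7% of all genes). Other pathway genes at that p numbered 5 to 12 higher and 0 to 1 lower (1.78% to 7.11% and 1.45% to 5.78% of all genes). Each of these upper counts, for members and other genes, was reached without control replicate 1. In brain, leaving out 1 library at a time gave 0 to 1 members higher and 1 to 3 lower at that p, 1 to 3 higher and 1 to 4 lower in every heat stress library (4.85% to 13.6%, 5.9% to 13.3%, 14.9% to 23.4% and 14.6% to 21.7% of all genes, in that order), and 1 to 3 other pathway genes higher and 5 to 12 lower. Members with a higher effect in liver at that p numbered 0 to 5 (2.03% to 11.3% of all genes). The log2 fold change of Alb in liver ran from -0.026 to 0.36 and that of Lrg1 in brain from -0.72 to 0.16. The cause of these shifts was not tested.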
